A study of Mus musculus with 9 samples.

Results

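The 10 genes described here handle lipoproteins, sterols and fatty acids in the mouse microglia line BV2: Lpl, Lrpap1, Lrp1, Apoe, Abca1, Abcg1, Fabp5, Plin2, Soat1 and Cd36. They are 10 of the 55906 genes in the deposited expression table. Lpl and Lrpap1 were chosen by their TPM values, which were lower with Pilo, so their levels with Pilo are given as a description and no test of them is read. RNA was sequenced from 9 libraries of wild-type cells, 3 treated with lipopolysaccharide (LPS) together with an agent that the labels call Pilo (LPS+Pilo), 3 treated with LPS alone (LPS) and 3 untreated (Control). The labels do not say what Pilo stands for, and give no dose or duration. They call the libraries biological replicates without stating separate cultures, so the p-values measure the spread between these libraries.

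Lipoprotein lipase, the product of Lpl, splits the triglycerides of lipoprotein particles into fatty acids. Particles rich in apolipoprotein E are taken up by lipoprotein receptors such as LRP1, and the chaperone RAP, encoded by Lrpap1, escorts these receptors through the endoplasmic reticulum. Fatty acids enter cells with the help of CD36 and travel bound to proteins such as FABP5. Cholesterol taken up in excess is esterified by the enzyme that Soat1 encodes and stored in droplets coated by perilipins such as PLIN2, or leaves the cell through the transporters ABCA1 and ABCG1. Oxysterol-activated LXR receptors, which pair with RXR, induce Abca1, Abcg1, Apoe and Lpl in macrophages. Microglia that clear myelin carry a large lipid load, and Lpl and Apoe are known for being induced in microglia around lesions and plaques.

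Of the 10 genes, 7 had a promoter window in the RefSeq table for build GRCm38.p6, with 9 windows in all. The authors' build was GRCm39, so these coordinates are not those of the expression table. An element of the LXR type, here GGTNA, any 5 bases and GGTCA on either strand, with letters set to admit the Abca1 element known from the literature, lay in 0.177% of 32851 windows of 250 bases before a gene start and in 1 window of the members, that of Abca1. The GC box GGGCGG on either strand, the letters bound by factors of the Sp1 type, lay in 32.7% of these windows and occurred 5 times in that of Lrpap1, 2 times each in those of Abca1 and Cd36, 1 time in that of Lrp1 and 0 times in those of Apoe, Plin2 and Soat1. Both stretches are shown from 5′ to 3′ on the minus strand, Abca1 for its element and Lrpap1 as the picked gene that had a window, with the LXR-type letters in capitals in Abca1 and the GC boxes in capitals in Lrpap1. A match describes these letters and is not a measured binding site.
Abca1, chr4:53159896-53159995: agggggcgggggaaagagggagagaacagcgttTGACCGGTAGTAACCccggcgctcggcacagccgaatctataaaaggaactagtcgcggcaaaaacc
Lrpap1, chr5:35105700-35105949: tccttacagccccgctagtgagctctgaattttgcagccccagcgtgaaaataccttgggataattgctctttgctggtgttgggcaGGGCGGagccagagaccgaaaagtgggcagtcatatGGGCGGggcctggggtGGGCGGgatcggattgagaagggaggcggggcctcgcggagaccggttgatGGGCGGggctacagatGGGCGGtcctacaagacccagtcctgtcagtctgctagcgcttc
The element in Abca1 spanned bases 67 to 53 before the start. None of the 3 Apoe windows, nor those of Lrp1, Plin2, Soat1 and Cd36, held the LXR-type letters.

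Values are TPM, which are scaled by transcript length and to a fixed total per library, so a rise in abundant genes lowers the others. Read depth is unknown. Fold changes are differences of log2(TPM + 1) with their standard error (SE) from limma, and a gene was called at a limma adjusted p under 0.05 over 11260 genes, those that reached 1 TPM in 3 or more libraries. The 3 comparisons share libraries and are not independent of each other. In LPS replicate 3 and Control replicate 2 many values were low: 66.3% and 60.1% of the tested genes had their group's lowest value there. On the second principal component (22% of the variance) LPS replicate 3 lay at 21.5, against -16.0 and -18.4 for LPS replicates 1 and 2, and Control replicate 1 lay at -34.0, against 17.7 and 2.29 for Control replicates 2 and 3. Among the members, 8 of the 9 tested genes were lowest in LPS replicate 3 within LPS, and 6 of 9 in Control replicate 2 within Control. Of 14 microglia and macrophage markers 12 were tested. Cd68 (976 to 1219 TPM), Tyrobp, Spi1 and Trem2 were high in every library, while P2ry12 (0 to 0.4 TPM) and C1qa (0 to 1.28 TPM) were near 0. The summed level of the list was 2289.9 to 2368 TPM in LPS+Pilo, 2601 to 2690.45 TPM in LPS and 3291 to 3583 TPM in Control, so it did not overlap between the groups. Cd68, Tyrobp, Trem2 and Spi1 made up most of this sum, and other markers took another order: Itgam averaged 30.3 TPM in LPS+Pilo, 35.4 TPM in LPS and 10.9 TPM in Control, Tmem119 3.00, 2.94 and 2.35 TPM and C1qb 1.41, 1.37 and 3.01 TPM in the same groups. Of the neuron markers only Tubb3 exceeded 0.5 TPM on average, and the list summed to 383 to 457 TPM in LPS+Pilo, 306 to 403 TPM in LPS and 164 to 367 TPM in Control, with overlap between neighbouring groups, while Rbfox3, Syt1 and Snap25 were listed at 0. Of the adipocyte markers Adipoq, Lep and Plin1 were listed at 0 everywhere and only Fabp4, which macrophages also express, exceeded 0.5 TPM on average.

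The members spanned a wide range of levels. In every group Apoe and Fabp5 were the most abundant, at or above the 98th percentile of tested genes, and Abca1 and Cd36 the least. Lpl held the third place in Control (182 ± 44.0 TPM, SD, n = 3), the fourth in LPS and the sixth in LPS+Pilo. Plin2, Lrp1, Lrpap1 and Soat1 filled the middle of the order. In LPS+Pilo the libraries of Lrpap1 (63.5 TPM), Lrp1 (62.9 TPM) and Lpl (60.0 TPM) overlapped, so these genes could not be ordered. Soat1 (51.5 TPM, at most 56.2 TPM) overlapped Lpl (from 55.6 TPM) but lay below Lrpap1 (from 61.15 TPM) and Lrp1 (from 61.9 TPM).

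**Figure D1:**
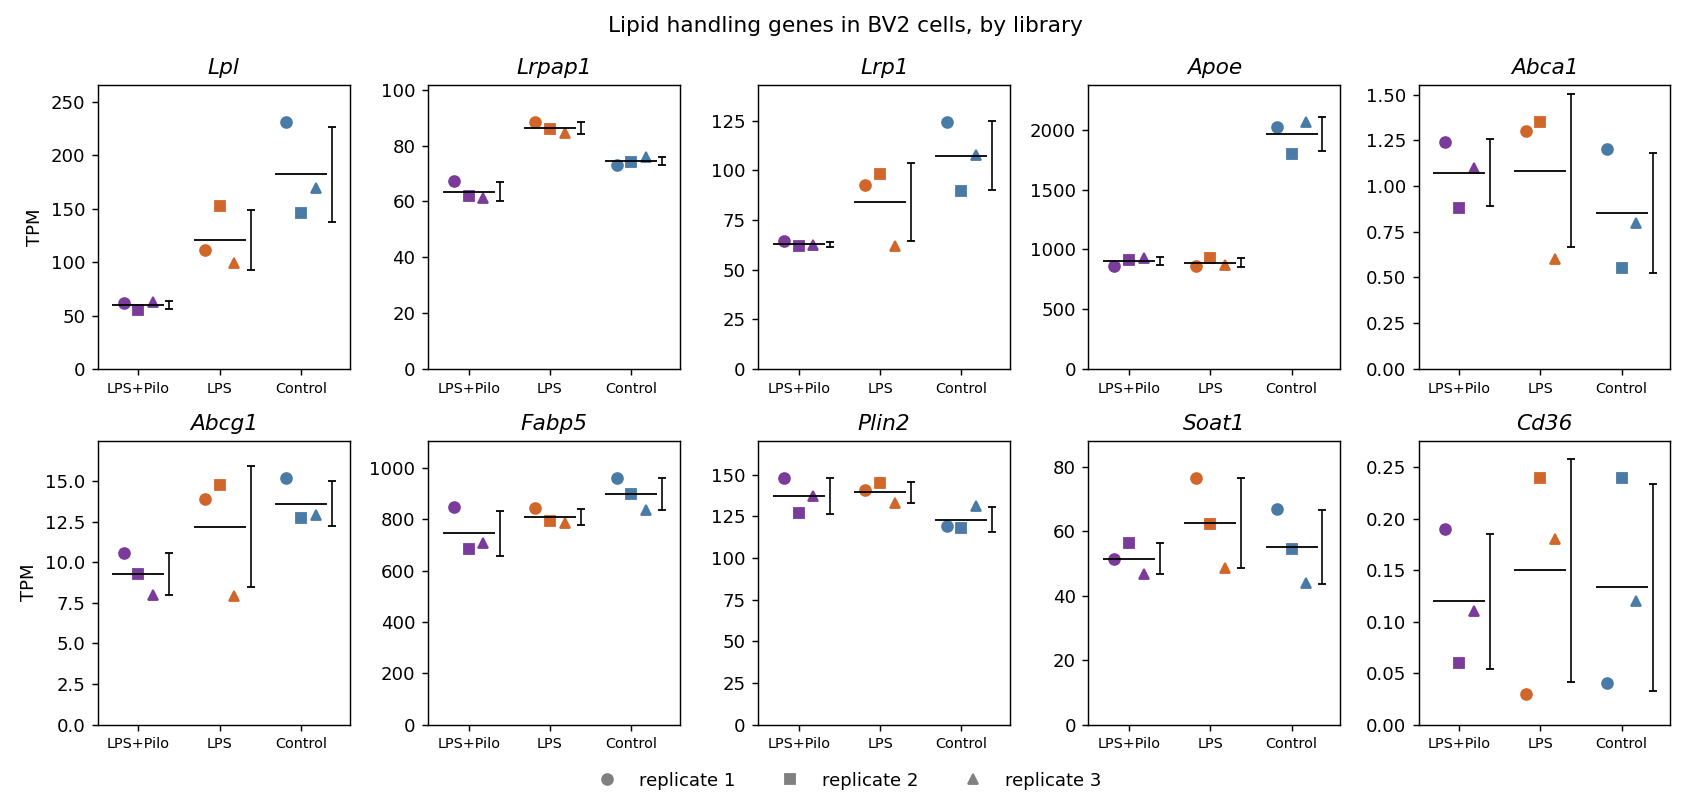
TPM of the 10 genes (1 panel each, y axes from 0) in the 3 libraries of LPS+Pilo, LPS and Control; symbols mark the replicate, lines the group mean and bars the SD. Lpl lies between 55.6 and 62.8 TPM in LPS+Pilo, below every LPS and Control library, while Apoe separates Control from both treated groups.

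Lpl, the lipase gene itself, was lowest in LPS+Pilo. It had 61.5, 55.6 and 62.8 TPM in LPS+Pilo, 112, 153 and 99.1 TPM in LPS and 231, 146 and 169 TPM in Control. The LPS+Pilo libraries lay close together and under all 6 others, whereas LPS and Control overlapped. The difference between LPS+Pilo and LPS was -0.98 ± 0.19 (log2, SE) and that between LPS+Pilo and Control -1.56 ± 0.19, as a description of a gene picked for it. Over the other settings and single libraries left out, the difference from LPS ran from -1.11 to -0.80. The summed microglia markers, though not each of them, were also lower in LPS+Pilo than in LPS, as given above, and their part in the Lpl values was not tested. In these bulk libraries of the line BV2, fewer cells expressing Lpl and less Lpl RNA per cell cannot be told apart.

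LPS alone left Lpl at 121 ± 28.1 TPM, against 182 ± 44.0 TPM in Control, a log2 fold change of -0.58 ± 0.19 that did not pass (limma adjusted p = 0.101). The LPS libraries of this comparison also took part in the choice of Lpl. With libraries rescaled to a common median ratio the gene passed at an adjusted p of 0.0189 (-0.64). Its adjusted p ran from 0.0189 to 0.228 over all settings.

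The genes that mature, anchor or restrain lipoprotein lipase were present in part. Lmf1, which encodes the factor that folds the lipase in the endoplasmic reticulum, stood at 18.2 ± 0.625 TPM in LPS+Pilo, 16.4 ± 1.45 TPM in LPS and 17.4 ± 0.501 TPM in Control and did not pass in any comparison. Gpihbp1, the endothelial anchor of the enzyme, was listed at 0 in all 9 libraries, and Angptl4, an inhibitor, did not exceed 0.12 TPM. Of the 19 genes of this list other than members 11 were tested. LPS against Control called 2 higher and 0 lower. These were Lipg, encoding endothelial lipase, and Apoc2, encoding the cofactor that activates lipoprotein lipase. LPS+Pilo against Control called 1 higher, Apoc2, and 0 lower. Over all tested genes 4.12% and 4.85% were called higher, and 3.64% and 5.3% lower, in the same comparisons. Of the 11, 0 passed between LPS+Pilo and LPS, with 1 at an unadjusted p under 0.05 (limma), Lipg, beside 761 of all 11260 genes.

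Apoc2 rose with LPS to 12.6, 14.2 and 14.3 TPM, against 8.05, 6.73 and 10.5 TPM in Control (0.65 ± 0.15, limma adjusted p = 0.0284). All 3 LPS libraries were above all 3 Control libraries. In LPS+Pilo it had 15.3, 15.8 and 14.95 TPM, 0.81 ± 0.15 over Control (adjusted p = 0.00834). The rise with LPS missed the threshold when any single library other than Control replicate 3 was left out (adjusted p = 0.0513 to 0.0998), with no filter (0.0538), under quantile normalization (0.0582) and in a fit of these groups alone (0.102), whereas the rise in LPS+Pilo over Control passed in every setting run. Without both Control replicate 2 and LPS replicate 3 the rise with LPS missed the threshold too (0.107). Lipg rose to 21.0, 21.95 and 13.9 TPM in LPS, against 9.54, 7.75 and 10.2 TPM in Control (0.95 ± 0.19, adjusted p = 0.0142). It missed the threshold without LPS replicate 1 (0.0603) or 2 (0.0603). In LPS+Pilo it had 14.1, 10.9 and 13.3 TPM, which did not pass against LPS (adjusted p = 0.598) or Control (0.191).

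Lrpap1, the gene of the receptor chaperone RAP, was picked with Lpl. It had 67.3, 62.1 and 61.15 TPM in LPS+Pilo, 88.4, 86.1 and 84.4 TPM in LPS and 73.1, 74.2 and 75.9 TPM in Control. The 3 groups did not overlap, with LPS highest and LPS+Pilo lowest. LPS+Pilo differed from LPS by -0.44 ± 0.07 and from Control by -0.23 ± 0.07, given as a description. LPS was 0.21 ± 0.07 above Control and did not pass (limma adjusted p = 0.128, range 0.0786 to 0.318 over the settings), in a test whose LPS libraries also took part in the choice of Lrpap1. Its replicates varied little, with an SD of 2.04 TPM in LPS.

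Lrp1, which encodes the large scavenging receptor that RAP escorts, fell in LPS+Pilo relative to Control. It had 64.4, 61.9 and 62.4 TPM in LPS+Pilo, 92.8, 98.1 and 61.8 TPM in LPS and 124, 89.7 and 108 TPM in Control. All LPS+Pilo libraries lay below all Control libraries, and LPS replicate 3 lay at the LPS+Pilo level. The fall against Control was -0.75 ± 0.17 (limma adjusted p = 0.0241). It missed the threshold without Control replicate 1 (0.0598) or 3 (0.0791), LPS+Pilo replicate 1 (0.0687), 2 (0.0833) or 3 (0.0781), and when no gene was filtered out (0.0673), with a range of 0.00152 to 0.0833 over all settings. LPS+Pilo against LPS gave -0.39 ± 0.17 (adjusted p = 0.745) and LPS against Control -0.36 ± 0.17 (0.259). Without LPS replicate 3 and Control replicate 2 these differences were -0.59 (0.189) and -0.28 (0.172).

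The message ratio of chaperone to receptor, Lrpap1 over Lrp1, was 1.05, 1.00 and 0.981 in LPS+Pilo, 0.952, 0.877 and 1.36 in LPS and 0.587, 0.827 and 0.704 in Control. Every treated library was above every Control library, narrowly for LPS replicate 2 (0.877) against Control replicate 2 (0.827). The 1.36 is that of LPS replicate 3, where many values were low. The ratio holds a picked gene and is given as a description, and how many other gene pairs separate in this way was not computed. Lpl and Lrp1 varied together over the 9 libraries (Pearson r = 0.93 on log2(TPM + 1), 0.82 after the group means were subtracted), as a description over libraries that share their treatment and their scaling. Lrp1 and Abcg1 did likewise (r = 0.92, or 0.89 after subtraction). Such likeness was not particular to these pairs. Abca1, near 1 TPM, reached 0.96 with Lrp1 and 0.85 with Lpl after subtraction, against 0.21 and -0.03 before it.

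**Figure D2:**
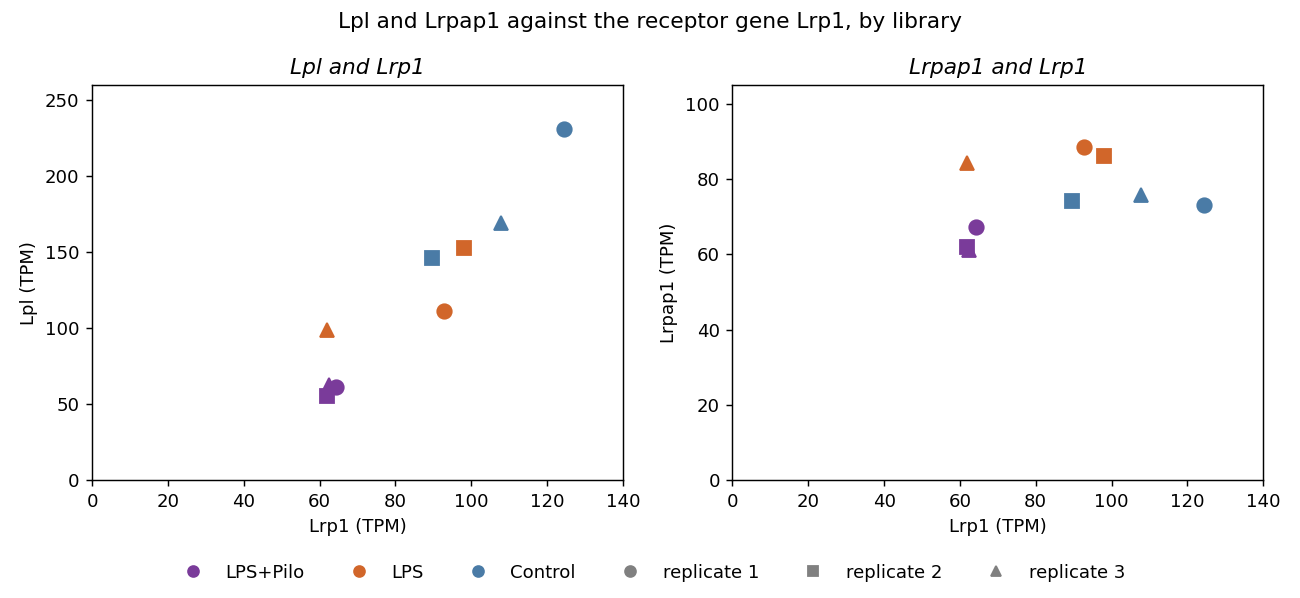
TPM of Lpl (left) and Lrpap1 (right) against TPM of Lrp1, with 1 point per library, colours for LPS+Pilo, LPS and Control and symbols for the replicate. Lpl and Lrp1 are mostly high or low in the same libraries, with the 3 LPS+Pilo libraries together at low values of both. LPS replicate 3 sits at the Lrp1 level of LPS+Pilo but has a higher Lpl (99.1 TPM). Lrpap1 does not overlap between the groups.

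The other lipoprotein receptors, clients of RAP and regulators gave few calls. Vldlr was listed at 0 throughout. Of 14 listed genes other than members 9 were tested and 0 passed with LPS against Control, beside 7.76% of all genes. At an unadjusted p under 0.05 (limma) there were 2 of the 9, beside 2560 of all 11260 genes. Under quantile normalization Mylip passed there (-0.40, adjusted p = 0.0494). LPS+Pilo against Control called 0 higher and 1 lower, beside 4.85% and 5.3% of all genes. This was again Mylip, an LXR target that encodes a ubiquitin ligase for lipoprotein receptors, at 1.11 ± 0.110 TPM in LPS+Pilo, against 2.12 ± 0.127 TPM in Control (-0.56 ± 0.13, limma adjusted p = 0.0233). Its LPS libraries, at 1.48, 1.59 and 1.43 TPM, lay between the other groups without overlap. Mylip missed the threshold when any Control or LPS+Pilo library was left out (0.0533 to 0.0886) and with a replicate block (0.0574). LPS+Pilo against LPS called 0 of the 9, with 0 at an unadjusted p under 0.05 (limma), beside 761 of all 11260 genes.

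Apoe, the gene of the main apolipoprotein that brain macrophages secrete, fell in both treated groups relative to Control. It had 863, 911 and 927 TPM in LPS+Pilo, 863, 932 and 871 TPM in LPS and 2020.1, 1801 and 2066 TPM in Control. Both treated groups lay far below Control and overlapped each other. With LPS it fell by 1.14 ± 0.08 on the log2 scale relative to Control (limma adjusted p = 3.35e-05), a 2.2-fold lower level. LPS+Pilo against Control gave -1.12 ± 0.08 (adjusted p = 3.38e-05) and LPS+Pilo against LPS 0.02 ± 0.08 (0.981). The calls against Control held in every setting run, with adjusted p up to 8.86e-04 for LPS and up to 4.08e-04 for LPS+Pilo.

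Of the 9 tested members Apoe was the only one that passed between LPS and Control, 1 of 9, where 7.76% of all tested genes passed, 4.12% higher and 3.64% lower. Between LPS+Pilo and Control, 2 of the 7 tested members that were not picked for Pilo passed, Apoe and Lrp1, both lower, beside 10.2% of all genes in either direction, 4.85% higher and 5.3% lower. Between LPS+Pilo and LPS 0 of these 7 passed, where 0.0444% of all genes passed, 0.00888% higher and 0.0355% lower. At an unadjusted p under 0.05 (limma) there were 0 of the 7, beside 761 of all 11260 genes. Groups without overlap were counted too. Between LPS and Control 2 of 9 members were higher without overlap, Lrpap1 and Plin2, and 1 was lower, Apoe, beside 11.2% and 13.1% of all genes. The LPS libraries also took part in the choice of Lpl and Lrpap1, which bears on both counts between LPS and Control. Of the 7 members not picked, Plin2 was higher and Apoe lower without overlap there. Between LPS+Pilo and Control 3 of the 7 were lower without overlap, Lrp1, Apoe and Abcg1, and 0 higher, beside 15.6% and 14.9% of all genes. Between LPS+Pilo and LPS 0 of the 7 were lower or higher without overlap, beside 6.63% and 5.58% of all genes. The median log2 fold change of the 7 between LPS+Pilo and LPS was -0.12, and that of all genes -0.05. These backgrounds rest on counts that moved with single libraries. The 874 genes of LPS against Control became 414 and 552 when Control replicate 3 or 2 was left out, and 507 and 466 for LPS replicate 1 or 2. Their split of 464 higher and 410 lower became 614 and 902 under quantile normalization, and 671 and 327 or 688 and 332 when Control replicate 1 or LPS replicate 3 was left out. The 1143 genes of LPS+Pilo against Control became 642 without Control replicate 3 and 735, 663 and 692 without LPS+Pilo replicates 1, 2 and 3. The 5 genes of LPS+Pilo against LPS became 1 without LPS replicate 1 or 2 and 0 without LPS replicate 3 or any 1 of the LPS+Pilo libraries.

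**Figure D3:**
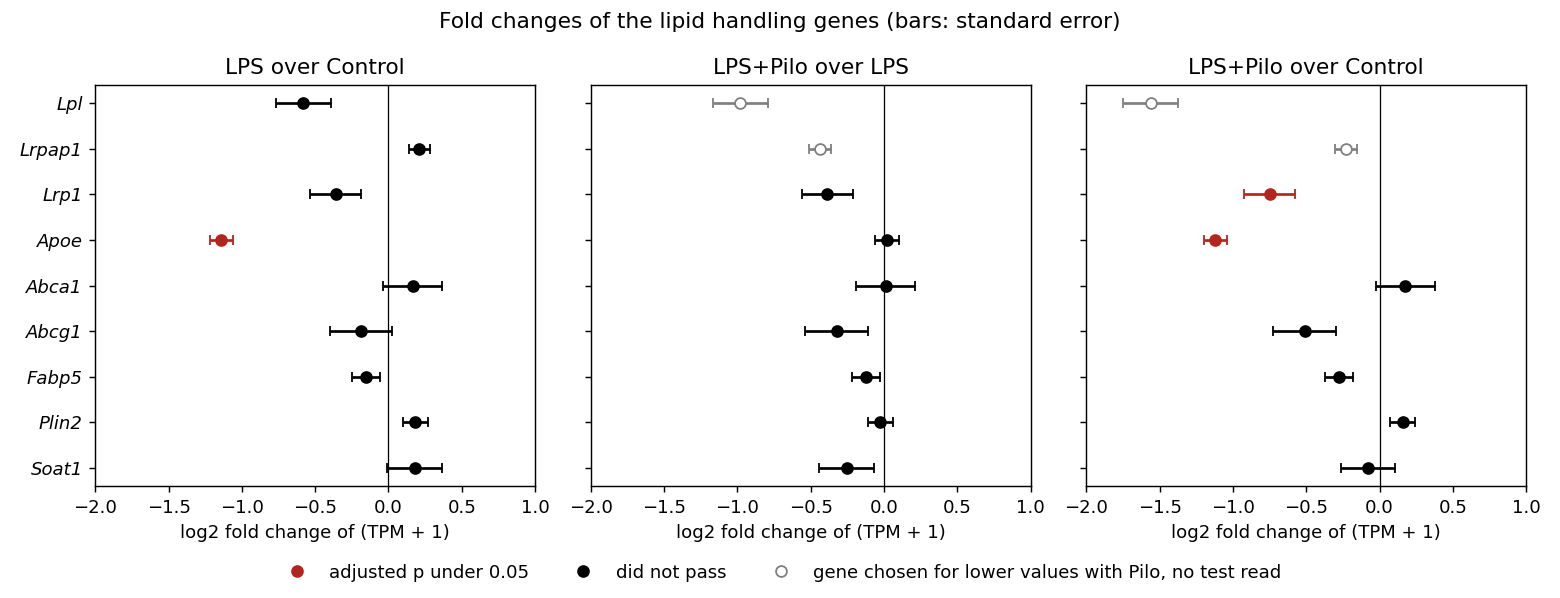
Log2 fold change of (TPM + 1) of the 9 tested members in the 3 comparisons, with bars for the standard error. Red points passed an adjusted p of 0.05, black points did not, and open grey points are Lpl and Lrpap1 where no test is read; Apoe lies at -1.14 and -1.12 against Control and at 0.02 between LPS+Pilo and LPS.

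The sterol exporter genes did not pass in any comparison. Abca1 was barely detected, at 1.24, 0.88 and 1.10 TPM in LPS+Pilo, 1.30, 1.35 and 0.60 TPM in LPS and 1.20, 0.55 and 0.80 TPM in Control, and the groups overlapped. Its log2 fold change was 0.16 ± 0.20 for LPS against Control (limma adjusted p = 0.661) and 0.01 ± 0.20 for LPS+Pilo against LPS (0.998). Abcg1 had 10.6, 9.27 and 8.00 TPM in LPS+Pilo, 13.9, 14.8 and 7.91 TPM in LPS and 15.2, 12.7 and 12.9 TPM in Control. The LPS+Pilo libraries were below all Control libraries, and LPS replicate 3 lay lowest of all. LPS+Pilo against Control gave -0.51 ± 0.21 and did not pass (adjusted p = 0.179), but passed without LPS replicate 3 (0.0385) and under quantile normalization (0.0281). For LPS against Control Abcg1 stood at -0.19 ± 0.21 (0.635), which became 0.072 without LPS replicate 3.

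The LXR receptors and their partners shifted in part. Nr1h2, which encodes LXR beta, fell with LPS to 26.9, 27.4 and 27.0 TPM, against 37.0, 36.3 and 37.1 TPM in Control (-0.43 ± 0.08, limma adjusted p = 0.0137). It stood in between in LPS+Pilo, at 31.2, 31.9 and 34.65 TPM, with 0.25 ± 0.08 over LPS (adjusted p = 0.533) and -0.17 ± 0.08 against Control (0.246). The 3 groups did not overlap. The fall with LPS missed the threshold without Control replicate 3 (0.0697) or LPS replicate 2 (0.0526). It also missed the threshold without both Control replicate 2 and LPS replicate 3 (0.0556). Nr1h3, encoding LXR alpha, averaged 10.3 ± 1.37 TPM in LPS+Pilo, 8.06 ± 0.240 TPM in LPS and 9.14 ± 2.24 TPM in Control and did not pass.

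Rxra, the gene of an RXR partner, fell to 27.1 ± 2.22 TPM in LPS+Pilo and to 29.8 ± 4.31 TPM in LPS, against 44.9 ± 5.16 TPM in Control. Its change was -0.70 ± 0.13 in LPS+Pilo (limma adjusted p = 0.00864) and -0.58 ± 0.13 in LPS (0.0272). The LPS call was lost when any Control library or LPS replicate 2 or 3 was left out (0.0525 to 0.0751), with no filter (0.0550) and in a fit of these groups alone (0.0762). It was also lost without both Control replicate 2 and LPS replicate 3 (0.0773). Arl4c, an LXR target that encodes a small GTPase, had 5.79 ± 1.02 TPM in LPS+Pilo and 5.86 ± 1.32 TPM in LPS, against 10.7 ± 1.61 TPM in Control (-0.79 ± 0.19, adjusted p = 0.0274, and -0.78 ± 0.19, 0.0350). Srebf1, the gene of the lipogenic factor SREBP1, had 37.9 ± 0.490 TPM in LPS+Pilo against 52.5 ± 2.41 TPM in Control (-0.46 ± 0.10, adjusted p = 0.0207) and 40.7 ± 5.02 TPM in LPS (-0.37 ± 0.10 against Control, 0.0615). For Arl4c the LPS+Pilo call was lost when Control replicate 1 or 3 or any LPS+Pilo library was left out (up to 0.112) and with no filter (0.0639). Its LPS call was lost when replicate 1 or 3 of any group was left out (up to 0.121), with no filter (0.0769), in a fit of these groups alone (0.0840) and with a replicate block (0.0504). The LPS call of Arl4c was also lost without both Control replicate 2 and LPS replicate 3 (0.0601). Srebf1 lost its call in LPS+Pilo when Control replicate 1 or 3 or any LPS+Pilo library was left out (0.0529 to 0.0754), and passed in LPS under quantile normalization (0.00570) and median rescaling (0.00712).

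Over the LXR and efflux list, 15 of 18 genes other than members were tested. LPS against Control called 0 higher and 3 lower (median -0.14, and 0.07 over all genes), and LPS+Pilo against Control 0 higher and 4 lower (median -0.17, and 0.02 over all genes). Over all tested genes 3.64% and 5.3% were called lower, and 4.12% and 4.85% higher, in the same comparisons. Of the list's calls only that of Rxra in LPS+Pilo held whichever single library was left out. LPS+Pilo against LPS called 0, with 3 at an unadjusted p under 0.05 (limma), beside 761 of all 11260 genes. The 3 were the receptor genes Nr1h2 and Rxrb and the oxysterol-forming enzyme gene Cyp27a1, all at higher values in LPS+Pilo. Rxrb had 83.9, 97.7 and 94.6 TPM in LPS+Pilo against 81.6, 70.3 and 67.0 TPM in LPS. Rxrb and Cyp27a1 were named after their values were seen.

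Of the sterol esterification and droplet genes the members did not pass, and 3 of 13 other tested genes rose against Control. Soat1, the esterification enzyme gene of macrophages, had 51.5, 56.2 and 46.7 TPM in LPS+Pilo, 76.6, 62.2 and 48.6 TPM in LPS and 66.8, 54.35 and 43.8 TPM in Control, and the groups overlapped. Its fold changes were -0.25 ± 0.19 for LPS+Pilo against LPS (limma adjusted p = 0.850) and 0.18 ± 0.19 for LPS against Control (0.606). Plin2, the gene of the main droplet coat protein of macrophages, had 148, 127 and 137 TPM in LPS+Pilo, 141, 145 and 133 TPM in LPS and 119, 118 and 131 TPM in Control. The LPS libraries were all above the Control libraries, by 0.18 ± 0.09, which did not pass (adjusted p = 0.248), and LPS+Pilo stood at -0.02 ± 0.09 against LPS (0.979).

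Soat2, the second sterol esterification gene, known mainly from liver and intestine, rose to 9.54, 8.25 and 11.1 TPM in LPS+Pilo and 7.29, 7.55 and 6.51 TPM in LPS, against 3.73, 3.98 and 3.36 TPM in Control. The 3 groups did not overlap. It was 1.18 ± 0.14 higher in LPS+Pilo than in Control (limma adjusted p = 8.26e-04) and 0.79 ± 0.14 higher in LPS (0.0090), and did not pass between LPS+Pilo and LPS (0.38 ± 0.14, 0.603). Dgat2, which encodes an enzyme of the last step of triglyceride synthesis, had 22.65, 20.8 and 25.6 TPM in LPS+Pilo, 18.7, 17.8 and 13.9 TPM in LPS and 10.8, 9.85 and 10.4 TPM in Control. It rose by 1.08 ± 0.14 in LPS+Pilo (adjusted p = 0.00105) and 0.64 ± 0.14 in LPS (0.0201). Hilpda, encoding a droplet protein that inhibits triglyceride breakdown, rose to 42.5 ± 3.80 TPM in LPS+Pilo (0.78 ± 0.11, adjusted p = 0.00245) and to 37.1 ± 3.02 TPM in LPS (0.59 ± 0.11, 0.0121), against 24.3 ± 2.57 TPM in Control.

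Plin3, the gene of a second perilipin, fell to 56.7 ± 5.74 TPM in LPS+Pilo (-0.45 ± 0.09, limma adjusted p = 0.0129) and 56.1 ± 2.34 TPM in LPS (-0.46 ± 0.09, 0.0147), against 77.7 ± 1.43 TPM in Control. All 4 genes passed in LPS+Pilo against Control in every setting run. Their LPS calls were lost for Soat2 without Control replicate 3 (0.0521) and for Hilpda without LPS replicate 2 (0.0564). That of Plin3 was lost without Control replicate 3 (0.0576), LPS replicate 2 (0.0691) or both Control replicate 2 and LPS replicate 3 (0.0660). That of Dgat2 was lost when Control replicate 2 or 3 or LPS replicate 1 or 2 was left out (0.0672 to 0.0835) and in a fit of these groups alone (0.0667). Of 21 listed genes other than members 13 were tested, and 3 were called higher and 1 lower in each comparison with Control. Over all tested genes 4.12% were called higher and 3.64% lower for LPS, and 4.85% and 5.3% for LPS+Pilo. The list's median log2 fold change was -0.02 for LPS and -0.03 for LPS+Pilo against Control, beside 0.07 and 0.02 over all genes. Plin1, Plin4 and Plin5 were below the filter. Of the 13, 0 passed between LPS+Pilo and LPS, with 3 at an unadjusted p under 0.05 (limma), Soat2, Dgat2 and, named after its values were seen, Dgat1 (0.33 at log2). Of all 11260 genes 761 stood under this unadjusted p.

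Fabp5, encoding the epidermal-type fatty acid binding protein, was the second most abundant member. It had 846, 682 and 706 TPM in LPS+Pilo, 843, 794 and 785 TPM in LPS and 962, 900 and 837 TPM in Control, and the groups overlapped. It did not pass in LPS+Pilo against Control (-0.28 ± 0.10, limma adjusted p = 0.113) except without LPS+Pilo replicate 1 (-0.37, 0.0434), nor in LPS+Pilo against LPS (-0.12 ± 0.10, 0.869). The related pseudogene Fabp5l2 was listed at 0 in every library, and how reads shared with other copies were assigned is not given in the sources used here. Cd36, the fatty acid translocase gene, ranged from 0.03 to 0.24 TPM over the 9 libraries, under the filter, and was not tested.

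Among 20 listed genes of fatty acid uptake, binding and activation other than members 17 were tested. Both comparisons with Control called the same 2 genes, 0 higher and 2 lower, beside 3.64% of all genes called lower for LPS and 5.3% for LPS+Pilo. The shares called higher were 4.12% and 4.85%. Fabp3, encoding the heart-type binding protein, had 34.8 ± 2.47 TPM in LPS+Pilo (-0.61 ± 0.13, limma adjusted p = 0.0187) and 36.9 ± 6.71 TPM in LPS (-0.55 ± 0.13, 0.0373), against 53.7 ± 3.03 TPM in Control. Cpt1a, which encodes the enzyme that commits fatty acids to mitochondrial oxidation, had 2.70 ± 0.239 TPM in LPS+Pilo (-0.78 ± 0.17, adjusted p = 0.0192) and 2.80 ± 0.596 TPM in LPS (-0.75 ± 0.17, 0.0275), against 5.38 ± 0.926 TPM in Control. Fabp3 lost its LPS+Pilo call when replicate 2 or 3 of Control or of LPS+Pilo was left out (0.0519 to 0.0788). It lost its LPS call when Control replicate 2 or 3, LPS replicate 1 or any LPS+Pilo library was left out (0.0546 to 0.146), with no filter (0.0742), in a fit of these groups alone (0.0986) and without a variance trend (0.0538). Without both Control replicate 2 and LPS replicate 3 the LPS call of Fabp3 was lost too (0.0896). Cpt1a lost its LPS+Pilo call when Control replicate 1 or 3 or any LPS+Pilo library was left out (0.0534 to 0.0810) and with no filter (0.0509). Its LPS call was lost when Control replicate 1 or 3 or any LPS library was left out (0.0513 to 0.0965), with no filter (0.0683) and in a fit of these groups alone (0.0916). Between LPS+Pilo and LPS 0 of the 17 passed, with 1 at an unadjusted p under 0.05 (limma), the binding protein gene Fabp4, at 84.3 ± 11.7 TPM in LPS+Pilo and 110 ± 14.8 TPM in LPS. Of all 11260 genes 761 stood under this unadjusted p.

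**Figure D4:**
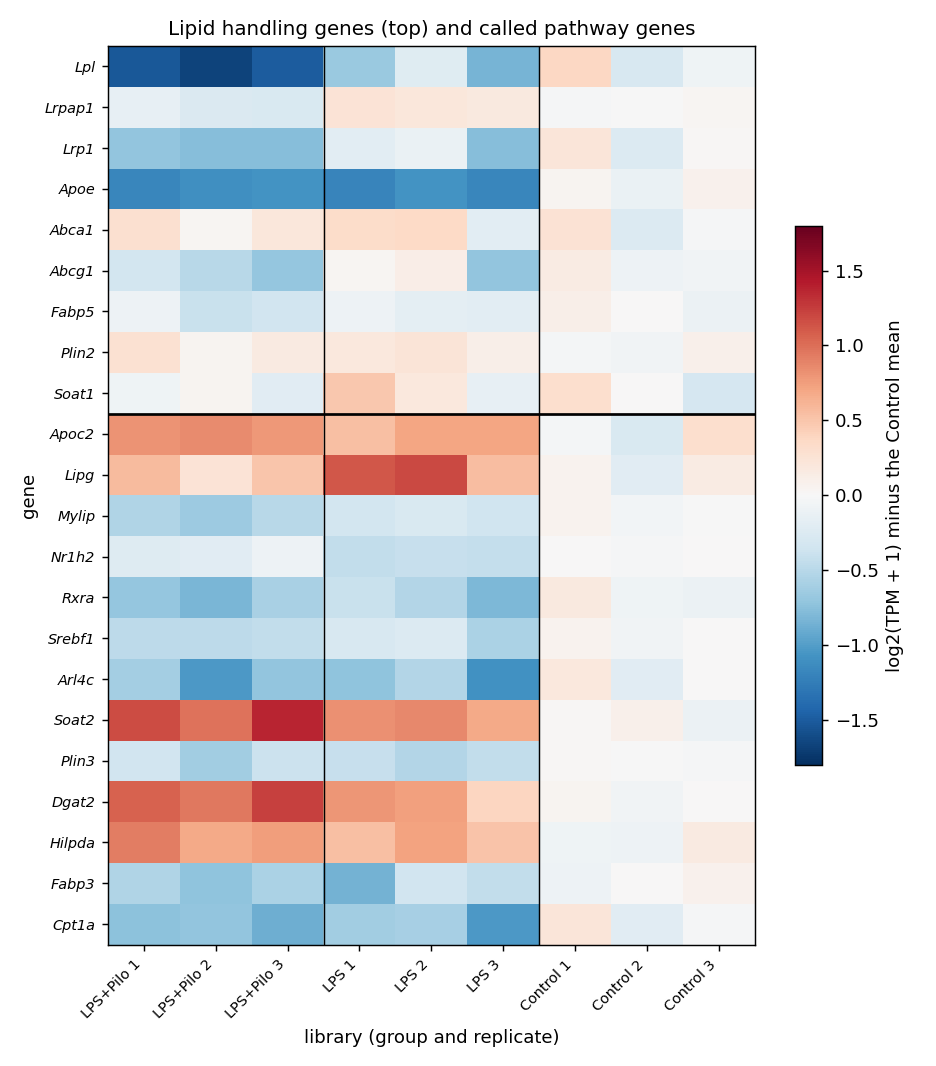
Log2(TPM + 1) of each library minus the Control mean of the gene, for the 9 tested members (top) and the 13 other pathway genes called in at least 1 comparison; columns are the LPS+Pilo, LPS and Control libraries by replicate. Soat2, Dgat2, Hilpda and Apoc2 are higher (red) and Apoe, Rxra, Arl4c and Cpt1a lower (blue) in both treated groups than in Control, and Lpl is lowest in LPS+Pilo.

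Genes of the PPAR receptors, which sense fatty acids, and of their targets gave few calls. Pparg, the receptor gene best known from adipocytes and macrophages, did not exceed 0.12 TPM. Of 14 genes other than members 7 were tested, and Cpt1a was the 1 lower gene with LPS and with LPS+Pilo against Control, with 0 higher. Over all tested genes 3.64% were called lower and 4.12% higher for LPS, and 5.3% and 4.85% for LPS+Pilo. Between LPS+Pilo and LPS 0 of the 7 passed, with 1 at an unadjusted p under 0.05 (limma), Fabp4. Over all 6 lists and without the members, 69 of 102 genes were tested. LPS against Control called 15.9% of them (5 higher, 6 lower) and LPS+Pilo against Control 15.9% (4 higher, 7 lower), beside 7.76% and 10.2% of all genes. LPS+Pilo against LPS called 0, with 8 at an unadjusted p under 0.05 (limma), beside 761 of all 11260 genes. The lists were chosen with earlier results of these data known, so these shares are a description and no test of the lists.

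Among the 5 genes whose log2(TPM + 1) over the 9 libraries was most like that of Lpl, of 7530 genes averaging 5 TPM or more, were Gpnmb (Pearson r = 0.985), Tlr13 (0.979), Fuca1 (0.975) and Cd200r4 (0.972). Their choice by likeness makes a like order of their group means likely, so that order is no separate result. Gpnmb had 721 TPM in LPS+Pilo, 1065 TPM in LPS and 1357 TPM in Control. Most like Lrpap1 were 2610203C22Rik (0.937), 2010111I01Rik (0.916), AU022793 (0.896), Gadd45b (0.893) and Speg (0.892). Chosen by the same likeness, these averaged highest in LPS and lowest in LPS+Pilo, which is likewise no separate result. Gadd45b, for example, had 14.3 TPM in LPS+Pilo, 21.2 TPM in LPS and 17.9 TPM in Control. Such values describe libraries that share treatment and scaling.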

How the data were processed

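The authors deposited 1 table of TPM per gene and library, with values rounded to 2 decimals. The submitters' processing notes list STAR 2.7.1a, fastp 0.19.5 and DESeq2 1.24.0, and name build GRCm39. No source used here names the program behind TPM, the annotation, or how strand and shared reads were handled. RNA was extracted with TRIzol for TruSeq libraries, per the labels' protocols. Depth per library is unknown, so only the spread between libraries gives the precision.

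Ensembl identifiers were matched to GENCODE M21 symbols (52081 of 55906). The 11260 genes that reached 1 TPM in 3 or more of 9 libraries were fitted as log2(TPM + 1) by limma 3.58.1 under R 4.3.3, with a mean for each group, trended variances, two-sided tests and Benjamini-Hochberg adjustment over all tested genes; the pseudocount understates changes of low genes. On simulated data over 11260 genes, genes changed by 1 and by 2 (log2) were recovered at 76% and 98% for LPS with Control (8 false calls). The shares were 73% and 98% for LPS+Pilo with LPS (15 false calls) and 75% and 99% for LPS+Pilo with Control (13 false calls). The simulation drew noise separately for each gene, without shifts shared by a library, and planted 100 changed genes of each size. These shares describe that setting and not the recovery in the data, where LPS+Pilo with LPS called 5 genes.

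Named were all 10 members, each pathway gene called in any comparison, 7 fixed receptors and regulators and the 5 genes most like Lpl and Lrpap1. The members and lists were chosen with earlier results of these data known. A few genes that the naming rule or the lists covered are not reported here.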

Additional observations from a re-analysis of the deposited data

How the results depend on the processing

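Each result was recomputed under 19 alternatives, 18 of them planned. The alternative without both Control replicate 2 and LPS replicate 3 was chosen after seeing the data. Apoe kept its calls against Control in all of them. For LPS against Control the 874 calls became 1516 under quantile normalization and 486 in a fit of these groups alone, and 414 to 1020 without single libraries. The members called, 1, became 2 with median rescaling (Lpl added). For LPS+Pilo against LPS the 5 calls became 2 with a pseudocount of 5 or median rescaling, 1 without a filter or under quantile normalization, 3 in a fit of these groups alone or without a variance trend, 0 without both named libraries and 0 to 6 without single libraries. For LPS+Pilo against Control the 1143 calls became 1726 under quantile normalization and 642 to 1286 without single libraries. There the members called, 2, became 1 without a filter and 1 to 3 without single libraries.

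The labels do not tie replicate numbers to a shared culture, and deviations of same-numbered libraries correlated at -0.225 to 0.165, with 4 of 9 libraries closest to their own number. The closest library was sought in the other groups, where each number is equally frequent, so some such matches would occur without any pairing. A replicate block gave 808, 1 and 1064 calls for LPS against Control, LPS+Pilo against LPS and LPS+Pilo against Control.

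Reversals touched values near 0 that had not passed. For LPS against Control, Abcg1 became 0.028 without both named libraries and ran from -0.34 to 0.072 without single libraries. For LPS+Pilo against LPS, quantile normalization gave Apoe -0.016, Arl4c 0.061 and Cpt1a 0.038, median rescaling gave Plin2 0.016, Arl4c 0.029 and Cpt1a 0.0079, a pseudocount of 5 gave Abca1 -4.5e-04, and leaving out both named libraries gave Abca1 -0.17. Without single libraries the same comparison ran from -0.0020 to 0.054 for Apoe, -0.17 to 0.11 for Abca1, -0.081 to 0.031 for Plin2, -0.16 to 0.12 for Arl4c, -0.043 to 0.095 for Plin3, -0.22 to 0.032 for Fabp3 and -0.16 to 0.051 for Cpt1a. For LPS+Pilo against Control the range was -0.23 to 0.071 for Soat1 and -0.021 to 0.28 for Nr1h3. The causes were not tested.

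Of the recomputed fold changes 1227 kept their direction and, except for Lpl and Lrpap1 with Pilo, where no test is read, their side of the threshold, 96 lost a call, 7 gained one and 29 reversed. A filter of 5 TPM left Abca1, Mylip and Cpt1a without a value. Unknown depth limits Abca1 and Cd36 most, near or under 1 TPM.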
